A study of Mus musculus with 10 samples.

Results

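R-spondins are secreted proteins that strengthen Wnt signalling. They bind the receptors LGR4, LGR5 and LGR6 together with ZNRF3 or RNF43, membrane ubiquitin ligases that otherwise remove Frizzled receptors from the cell surface, so that more Wnt receptor remains in place. Axin2 and Nkd1 are transcribed in response to canonical Wnt signalling and code for feedback inhibitors of it, and for this reason serve as readouts. In the hippocampus Wnt signalling is known for its part in the formation of the dentate gyrus and in adult neurogenesis.

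The genes described here are the R-spondins Rspo1, Rspo2 and Rspo3, the receptors Lgr4, Lgr5 and Lgr6, the ligases Znrf3 and Rnf43, and the readouts Axin2 and Nkd1. These are 10 of the 43629 genes in the count table, found by matching Ensembl gene IDs to symbols in the GRCm38 annotation, and all 10 passed the filter on low counts that left 17237 genes for testing. Rspo1 was chosen by its measured rise in Dp1Tyb in these same counts, so its difference between the genotypes is a description and carries no p-value. The other genes were chosen for their place in the pathway. None of the 10 genes lies in the duplicated region.

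Expression was measured by RNA sequencing of whole hippocampus, with 1 library per mouse. The samples came from 5 wild-type (WT) mice and 5 littermates with the genotype Dp(16Lipi-Zbtb21)1TybEmcf (Dp1Tyb), all male according to the methods of the study, on the C57BL/6J.129P2 strain and labelled as 18 weeks old. The duplication, made as a model of Down syndrome, gives Dp1Tyb mice 1 copy more than WT of the chromosome 16 segment from Lipi to Zbtb21, which spans 22.4 Mb in GRCm38. Whole tissue was sequenced, so fewer cells of a type and less RNA per cell cannot be told apart. Total counts per library ranged from 18227684 to 43692270.

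The tissue carried its defining markers. Genes of dentate granule cells, CA1 and CA3 pyramidal neurons were detected in every library, with lowest counts of 1295, 2666 and 85 for any marker of the 3 lists. Of the marker lists, the libraries differed most in that of choroid plexus, the tissue inside the ventricles that makes cerebrospinal fluid. Its 9 markers summed to between 437 and 5509 CPM (read counts scaled to library size) in WT and between 40.9 and 3961 CPM in Dp1Tyb, and all 9 had a lower mean in Dp1Tyb, none of them past the test. Among them Clic6 and Kcne2 lie in the duplicated region, with log2 fold changes of −0.40 and −0.43. The others ranged from −0.90 (Kl) to −1.20 (Slc4a5). The choroid plexus covariate used below is built from all 9. WT replicate 2 and Dp1Tyb replicates 1 and 4 were the libraries poor in choroid plexus.

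Sequence was available for the stretch before the RefSeq start of 6 of the 10 genes (Rspo1, Lgr4, Lgr6, Rnf43, Axin2 and Nkd1), on GRCm38.p6. For Nkd1 and Rnf43 these stretches lie inside the gene span of the annotation used elsewhere here, not before it. The 250 bases that precede the start of Rspo1 (chr4:124986180-124986429, plus strand) and of Axin2 (chr11:108920099-108920348, plus strand) are shown because these are the ligand that was higher in Dp1Tyb and the target gene that serves as the readout. Each is written 5′ to 3′ in lower case.
Rspo1: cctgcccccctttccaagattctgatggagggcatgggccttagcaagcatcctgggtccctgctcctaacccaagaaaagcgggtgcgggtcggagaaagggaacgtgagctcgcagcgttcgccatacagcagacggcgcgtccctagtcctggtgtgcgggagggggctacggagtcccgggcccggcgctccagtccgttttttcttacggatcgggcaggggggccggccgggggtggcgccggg
Axin2: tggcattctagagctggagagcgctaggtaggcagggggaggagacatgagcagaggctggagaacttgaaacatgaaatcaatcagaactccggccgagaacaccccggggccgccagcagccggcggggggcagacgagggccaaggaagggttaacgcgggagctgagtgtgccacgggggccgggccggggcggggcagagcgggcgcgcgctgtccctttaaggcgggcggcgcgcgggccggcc
Both stretches are rich in G and C, at 66.8% for Rspo1 and 69.2% for Axin2, against a median of 52.4% over 32851 such stretches. The core of the motif bound by TCF/LEF factors, the transcription factors of canonical Wnt signalling, was searched as CTTTGA on both strands, a search with no overlap with another motif. No base is capitalised above because neither stretch holds it. It was also absent from the other 5 stretches searched (Lgr4, Lgr6, Nkd1 and the 2 of Rnf43), and 13.8% of the 32851 stretches hold it. The search says only that these letters are not in these windows.

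Rspo1 (ENSMUSG00000028871, positions 124986430 to 125009099 of chromosome 4, plus strand) codes for a secreted R-spondin. Its read counts in WT replicates 1 to 5 were 9, 13, 9, 22 and 14, and those in Dp1Tyb replicates 1 to 5 were 103, 44, 53, 51 and 36. Scaled to library size, these were 0.28, 0.541, 0.488, 0.666 and 0.653 CPM in WT and 2.36, 1.54, 2.12, 1.54 and 1.64 CPM in Dp1Tyb. The lowest Dp1Tyb sample lay above the highest WT sample, and the gap between the genotypes was wider than the range within either. Means with SD (n = 5) were 0.525 ± 0.156 for WT and 1.84 ± 0.376 for Dp1Tyb, a fold change of 3.53 with a 95% interval of 2.49 to 5.01 (edgeR log2 fold change 1.82 ± 0.23 SE). Rspo1 was chosen for this rise, so the interval takes no account of the choice and is not a test. The fold change rests on 67 counts in WT and 287 in Dp1Tyb. Leaving out single samples moved the log2 fold change between 1.63 and 1.95. Without the 3 libraries poor in choroid plexus it was 1.76, and with the level of the choroid plexus markers as a covariate it was 1.80.

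The annotation places the antisense gene Gm12930 within the span of Rspo1 on the other strand, with no shared exon bases. It had 0 to 9 counts per library, 24 in all in WT and 18 in Dp1Tyb, against 67 and 287 for Rspo1.

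**Figure D1:**
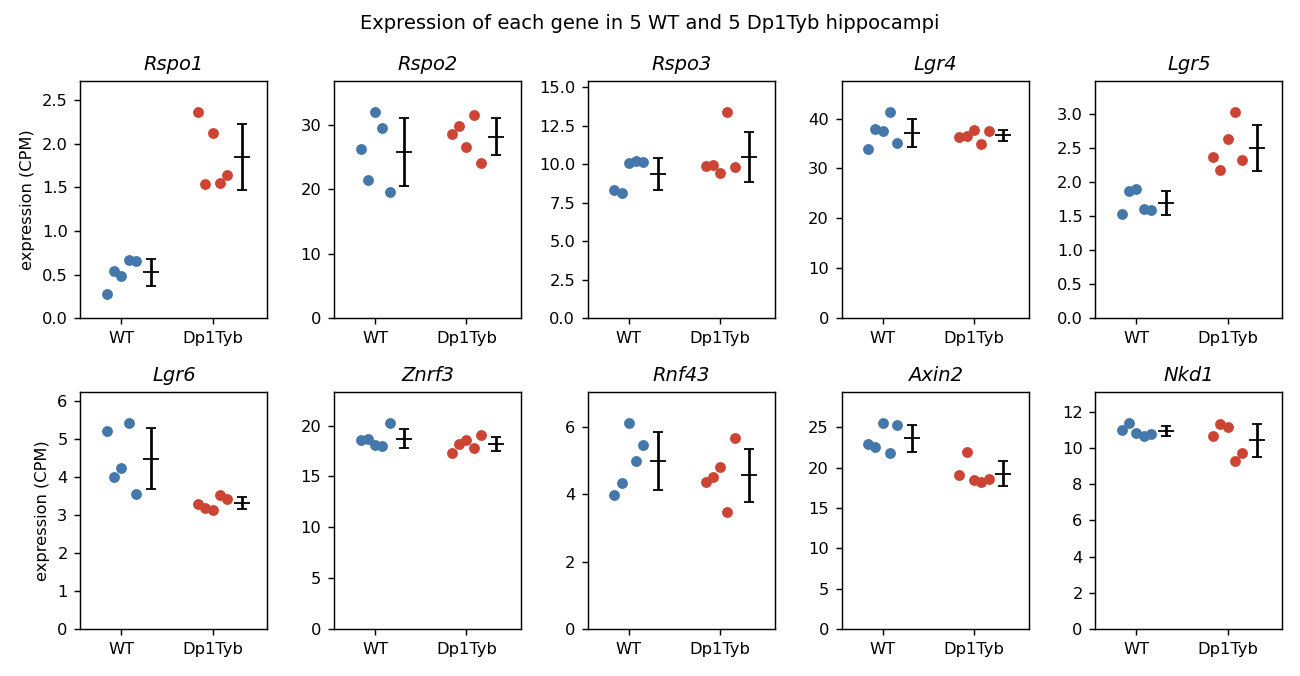
Expression in CPM (vertical axes, each from 0) of the 10 genes in the 5 WT (blue) and 5 Dp1Tyb (red) samples, 1 point per mouse, with the mean and SD in black. The genotypes separate for Rspo1 and Lgr5 and, by a narrow margin, for Lgr6, 4 of the 5 Dp1Tyb samples lie below all WT samples for Axin2, and the other genes overlap.

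The other 2 R-spondins had higher levels than Rspo1 and did not pass the test. Rspo2 (chromosome 15) ranged from 19.6 to 32.04 CPM in WT and from 24.2 to 31.6 CPM in Dp1Tyb, a log2 fold change of 0.13 ± 0.12 SE with a 95% interval of −0.13 to 0.39 (edgeR, adjusted p = 0.65). Rspo3 (chromosome 10) ranged from 8.15 to 10.2 CPM in WT and from 9.44 to 13.4 CPM in Dp1Tyb. Its log2 fold change was 0.17 ± 0.11 SE with an interval of −0.07 to 0.40 (adjusted p = 0.516), and 0.058 without Dp1Tyb replicate 4, the highest sample. For both genes the ranges of the genotypes overlapped. Gm48159, which shares 404 exon bases with Rspo3 on the other strand, and Gm20276, which overlaps it without shared exon bases, were not analysed here. Rspo4, the remaining member of the family, had 1 read in 1 of the 10 libraries and could not be tested.

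Levels between genes were compared as RPKM, which is CPM divided by the length of annotated exon in kb. Rspo1 made up 3.29% ± 1.09 of the summed RPKM of Rspo1, Rspo2 and Rspo3 in WT and 9.73% ± 2.22 in Dp1Tyb (SD, n = 5), with ranges of 1.81% to 4.52% and 7.05% to 12.2%. Rspo2 made up 60.1% ± 5.26 in WT and 55.9% ± 2.04 in Dp1Tyb. The summed level of the 3 genes ranged from 7.11 to 9.78 RPKM in WT and from 8.75 to 11.3 RPKM in Dp1Tyb, ranges that overlap. Rspo2 had the largest share and Rspo1 the smallest in both genotypes. The share of Rspo1 contains the rise for which it was chosen and is only a description.

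Among the receptors, the scarcest had the widest differences. Lgr5 (ENSMUSG00000020140, chromosome 10, positions 115450311 to 115587780, minus strand) marks stem cells in several epithelia and is itself a Wnt target gene. Its levels were 1.52, 1.87, 1.90, 1.604 and 1.59 CPM in WT replicates 1 to 5 and 2.36, 2.17, 2.64, 3.03 and 2.33 CPM in Dp1Tyb replicates 1 to 5. The 5 Dp1Tyb samples were each higher than every WT sample, although the log2 fold change of 0.57 ± 0.14 SE, with an interval of 0.28 to 0.86, did not pass the threshold (edgeR, unadjusted p = 0.000953, adjusted p = 0.0634). DESeq2 called it, at an adjusted p of 0.0401, and over all its alternatives the adjusted p ranged from 0.0401 to 0.286. A930009A15Rik overlaps Lgr5 on the other strand without shared exon bases and had 8 to 20 counts per library.

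Lgr6 (ENSMUSG00000042793, chromosome 1, positions 134983301 to 135105276, minus strand) differed in the opposite direction. It was measured at 5.19, 3.99, 4.23, 5.42 and 3.54 CPM in WT and at 3.28, 3.18, 3.12, 3.51 and 3.42 CPM in Dp1Tyb. The WT samples spread widely and the Dp1Tyb samples were close together, and the lowest WT sample was only just above the highest Dp1Tyb sample. The log2 fold change was −0.45 ± 0.12 SE, with an interval of −0.72 to −0.18 (edgeR, unadjusted p = 0.00326, adjusted p = 0.12), and no alternative called it (adjusted p from 0.0504 to 0.268).

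Lgr4, the receptor with the highest level, ranged from 33.9 to 41.3 CPM in WT and from 35.0 to 37.8 CPM in Dp1Tyb. Its log2 fold change was −0.02 ± 0.054 SE, with an interval of −0.14 to 0.10 (adjusted p = 0.892) and a fold change between 0.909 and 1.07 at that level. Lgr4 supplied 88.5% ± 1.36 of the summed Lgr RPKM in WT and 89.5% ± 0.864 in Dp1Tyb. Lgr5 supplied 2.33% ± 0.251 in WT and 3.52% ± 0.518 in Dp1Tyb (SD, n = 5).

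Neither ubiquitin ligase passed the test, and the genotypes overlapped for both. Znrf3 ranged from 18.0 to 20.3 CPM in WT and from 17.3 to 19.1 CPM in Dp1Tyb (log2 fold change −0.04 ± 0.056 SE, interval −0.16 to 0.08, edgeR adjusted p = 0.768). Rnf43 ranged from 3.98 to 6.13 CPM in WT and from 3.48 to 5.66 CPM in Dp1Tyb, with a log2 fold change of −0.12 ± 0.14 SE and a wider interval of −0.44 to 0.19 (adjusted p = 0.73). Within the span of Rnf43 the annotation places 1110028F11Rik, which had 0 to 3 counts per library, and Gm25968, which was listed at 0 in every library. Znrf3 made up 75.8% ± 3.28 of the summed RPKM of the pair in WT and 76.9% ± 2.61 in Dp1Tyb.

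Both readouts had a lower mean in Dp1Tyb, and neither passed the test. Axin2 (ENSMUSG00000000142, chromosome 11, positions 108920349 to 108950783, plus strand), a scaffold of the complex that degrades β-catenin, had 22.9, 22.6, 25.6, 21.9 and 25.3 CPM in WT and 19.1, 21.9, 18.5, 18.3 and 18.7 CPM in Dp1Tyb. Dp1Tyb replicate 2 reached the lowest WT sample, and the other 4 Dp1Tyb samples lay below every WT sample. The log2 fold change was −0.29 ± 0.068 SE, with an interval of −0.44 to −0.15, and missed the threshold (edgeR, unadjusted p = 0.000799, adjusted p = 0.0585). It passed with DESeq2 (adjusted p = 0.00522) and without Dp1Tyb replicate 2 (adjusted p = 0.0326), and its adjusted p ranged up to 0.252 when the libraries poor in choroid plexus were left out. The antisense gene Gm11670 shares 209 exon bases with Axin2 on the other strand and had 1 to 7 counts per library.

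Nkd1, which codes for an inhibitor of Dishevelled, ranged from 10.7 to 11.4 CPM in WT and from 9.27 to 11.3 CPM in Dp1Tyb. Its log2 fold change was −0.07 ± 0.073 SE, with an interval of −0.22 to 0.09 (edgeR, adjusted p = 0.699). Gm45496, which overlaps Nkd1 without shared exon bases, was not analysed here. The 2 readouts therefore had different values, −0.29 and −0.07, and whether they differ from each other was not tested.

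In edgeR, 0 of the 9 genes other than Rspo1 were differentially expressed, beside 1.11% of all genes tested. At an unadjusted p under 0.05 there were 3 of the 9 (Lgr5, Lgr6 and Axin2), beside 14.4% of all genes. DESeq2 called 2 of the 9, beside 3.2% of the genes with an adjusted p, and limma-voom called 0, beside 1.08% of all genes. The samples of the genotypes did not overlap for 2 of the 9, beside 3.68% of all genes. The median log2 fold change of the 9 was −0.04, against −0.0041 over all genes tested.

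**Figure D2:**
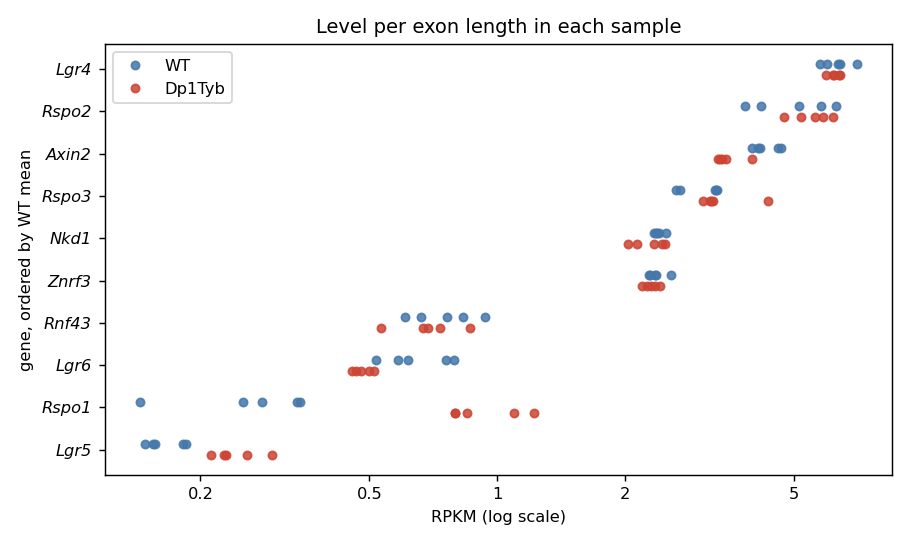
RPKM on a log scale (horizontal axis) of the 10 genes, ordered from the highest to the lowest WT mean, with 1 point for each WT (blue) and Dp1Tyb (red) sample. WT means run from 6.31 RPKM for Lgr4 to 0.165 RPKM for Lgr5. Rspo1, which was chosen for its rise, moves from rank 9 in WT to rank 7 in Dp1Tyb.

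In WT hippocampus the order of the 10 genes by mean RPKM was Lgr4 (6.31), Rspo2 (5.04), Axin2 (4.30), Rspo3 (3.04), Nkd1 (2.40), Znrf3 (2.37), Rnf43 (0.759), Lgr6 (0.653), Rspo1 (0.271) and Lgr5 (0.165). The WT samples of neighbours in this order overlapped for Lgr4 and Rspo2, Rspo2 and Axin2, Nkd1 and Znrf3, Rnf43 and Lgr6, and Rspo1 and Lgr5, so these pairs were not separated beyond their spread. In Dp1Tyb Rspo1, which was chosen for its rise, was at 0.95 ± 0.194 RPKM (SD, n = 5), and its mean lay above those of Rnf43 and Lgr6.

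The rest of the pathway was examined in a list of 82 genes, of which 73 could be tested and none lies in the duplicated region. The 9 that could not be tested (Wnt3a, Wnt6, Wnt8a, Rspo4, Dkk1, Dkk4, Sost, Sp5 and Ascl2) had at most 18 counts in any library. Of the 73, edgeR called 0 higher and 0 lower in Dp1Tyb, where it called 0.87% of all genes tested higher and 0.238% lower. At an unadjusted p under 0.05, 3 were higher and 7 were lower, beside 14.4% of all genes in either direction. DESeq2 called 1, Fzd2, beside 3.2% of the genes with an adjusted p, and limma-voom called 0, beside 1.08%. The log2 fold change was negative for 48 of the 73 and for 8842 of the 17237 genes tested, and its median was −0.06 against −0.0041.

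The Frizzled genes code for the Wnt receptors that ZNRF3 and RNF43 remove. The 10 genes are a subset of the planned list of 18 receptors and co-receptors. In that list 15 of the 18 had a negative log2 fold change, with a median of −0.15. Of the 10 Frizzled genes 9 were negative, with a median of −0.25, where 8842 of all 17237 genes tested were negative. Whether these signs differ from those of all genes was not tested. Of the 10, 0 passed the test in edgeR, beside 1.11% of all genes, and 2 had an unadjusted p under 0.05, beside 14.4% of all genes. Fzd2 had the largest difference of the receptors and co-receptors, with 5.44, 6.12, 8.57, 7.63 and 7.51 CPM in WT and 4.13, 4.72, 4.24, 3.88 and 6.02 CPM in Dp1Tyb. Dp1Tyb replicate 5 overlapped the WT range and the other 4 Dp1Tyb samples were below it. The log2 fold change was −0.62 ± 0.15 SE (edgeR, adjusted p = 0.0621). This call depended on the fit: the alternatives under which it passed included DESeq2 (adjusted p = 0.00288), no filter on low counts (0.038) and leaving out Dp1Tyb replicate 5 (0.0246) or WT replicate 1 (0.0377), and its adjusted p ranged up to 0.261. Ryk, a Wnt co-receptor with the highest level per length of the 18 receptors and co-receptors, stood at −0.01 ± 0.064 SE on the log2 scale (adjusted p = 0.954).

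Among 17 Wnt ligands tested, 0 passed in edgeR, beside 1.11% of all genes. At an unadjusted p under 0.05 there were 2 of the 17, both lower in Dp1Tyb, beside 14.4% of all genes in either direction. Wnt7b, the highest of the ligands per length, stood at 39.9 ± 4.16 CPM in WT and at 35.1 ± 4.79 in Dp1Tyb samples (SD, n = 5), and edgeR gave an adjusted p of 0.378. Wnt9b had the largest fold change of the ligands, from 0.622 ± 0.146 to 0.389 ± 0.0816 CPM, a log2 value of −0.62 ± 0.24 SE (adjusted p = 0.271). Porcn and Wls, which acylate and export Wnt proteins, had log2 fold changes of −0.02 ± 0.047 SE and −0.06 ± 0.095 SE (adjusted p = 0.842 and 0.814).

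Of 13 extracellular inhibitors tested, 0 passed in edgeR, beside 1.11% of all genes. At an unadjusted p under 0.05 there were 2 of the 13, Dkk3 among them and both higher in Dp1Tyb, beside 14.4% of all genes in either direction. Dkk3, the highest of the 13 at 129.996 RPKM over all samples, had 420.2 ± 18.3 CPM in WT and 453.2 ± 11.3 CPM in Dp1Tyb (log2 fold change 0.11 ± 0.038 SE, adjusted p = 0.223). Sfrp5, a secreted Frizzled decoy, had the largest difference of the 13, with a wide error (−0.91 ± 0.63 SE, adjusted p = 0.534). Its lowest samples were those poor in choroid plexus, at 0.707 CPM in WT replicate 2 and 0.183 and 0.0909 CPM in Dp1Tyb replicates 1 and 4. Its log2 fold change was −0.38 without these 3 libraries, −0.15 with the choroid plexus covariate and −1.79 with limma-voom.

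Genes that act inside the cell also did not pass the test. At an unadjusted p under 0.05, 1 of the 11 Dishevelled and destruction complex genes was higher and 2 were lower. Of the 8 TCF/LEF factors and cofactors, 0 were higher and 1 was lower, beside 14.4% of all genes in either direction. Ctnnb1, which codes for β-catenin, had samples that did not overlap and a log2 fold change of only 0.08 ± 0.034 SE (edgeR, adjusted p = 0.305). The genotypes did not overlap for 3 of the 73 pathway genes tested (Wnt9b, Ctnnb1 and Lef1), beside 3.68% of all genes. Dvl2, which codes for a Dishevelled protein, had the largest difference of the 11 Dishevelled and destruction complex genes, at −0.14 ± 0.059 SE (adjusted p = 0.292). Of the 8 TCF/LEF factors and cofactors, Lef1 differed most. It had 6.06, 6.03, 6.02, 7.14 and 6.53 CPM in WT and 5.02, 4.76, 5.68, 4.45 and 5.70 CPM in Dp1Tyb, so that all Dp1Tyb samples were below all WT samples (log2 fold change −0.32 ± 0.097 SE, adjusted p = 0.161). Pygo2, a cofactor of β-catenin and the highest of these 8 genes per length, was at −0.03 ± 0.045 SE on the same scale (adjusted p = 0.768).

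Of the 6 other Wnt target genes, 4 could be tested. Of these 4, Nkd2 had the largest log2 fold change (0.08 ± 0.11 SE, edgeR adjusted p = 0.775) and Tnfrsf19 the highest level (0.06 ± 0.045 SE, adjusted p = 0.602). At an unadjusted p under 0.05 there were 0 of the 4, beside 14.4% of all genes.

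**Figure D3:**
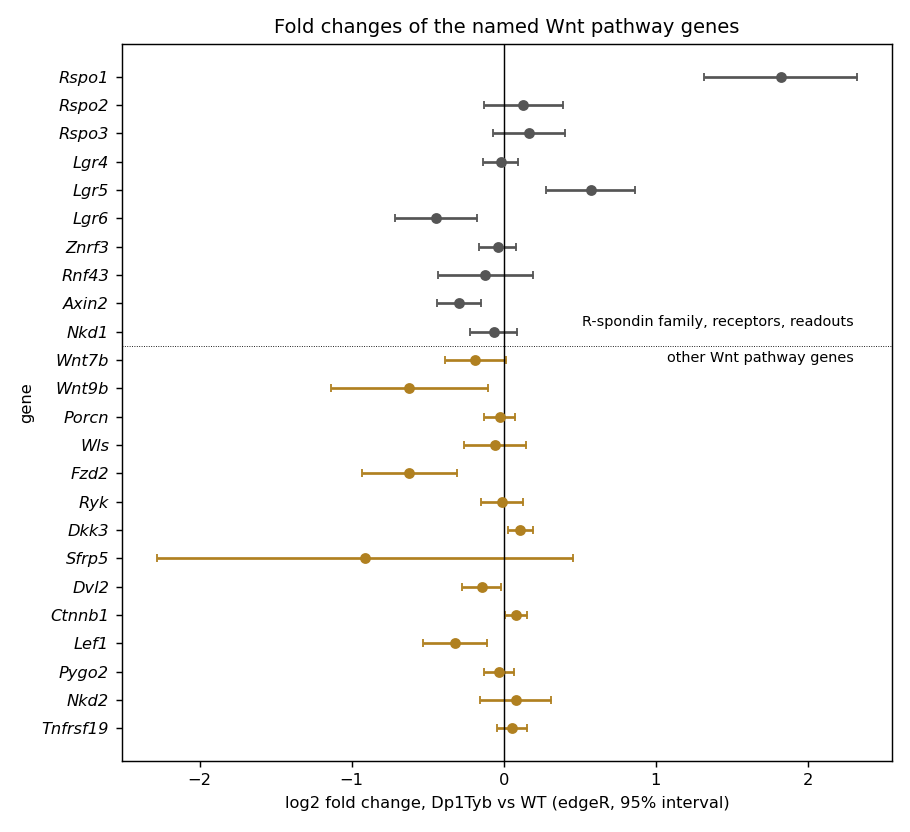
Log2 fold changes of Dp1Tyb vs WT (horizontal axis) with 95% intervals from edgeR, n = 5 per genotype, for the 10 genes (grey) and for the named genes of the wider Wnt pathway (brown). Apart from Rspo1 at 1.82, which was chosen for its rise, values lie between −0.91 for Sfrp5 and 0.57 for Lgr5.

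The study asked whether neighbouring genes change together, by the direction and size of fold changes in gene order. That measure was not computed here, and the nearest genes of Rspo1 are only described. The 9 neighbours described were Maneal, Epha10, 1700125G02Rik, Cdca8 and 9930104L06Rik before it and Gnl2, Dnali1, Meaf6 and Zc3h12a after it. Their log2 fold changes ranged from −0.03 to 0.16 with a median of 0.03, with 5 positive and 4 negative. Gnl2 and Dnali1, which follow Rspo1 directly among the tested genes, were positive as Rspo1 was (0.16 and 0.04). The nearest gene before it, 9930104L06Rik, was negative (−0.03). In edgeR 0 of the 9 were called, beside 1.11% of all genes, and 1 had an unadjusted p under 0.05, beside 14.4%. DESeq2 and limma-voom also called 0. That gene was Gnl2 (positions 125016585 to 125055380), a nucleolar GTPase gene and the next tested gene after Rspo1, with 0.16 ± 0.047 SE (edgeR adjusted p = 0.139). Its samples did not overlap between the genotypes, as for 3.68% of all genes.

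**Figure D4:**
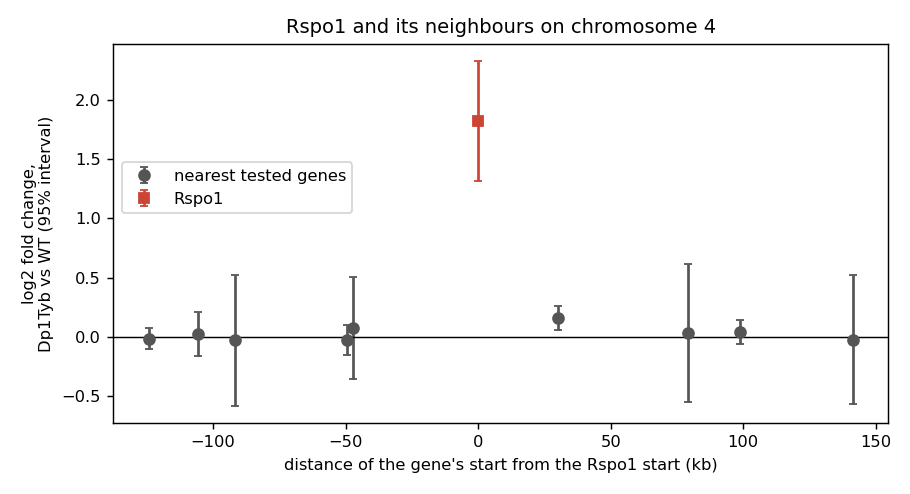
Log2 fold change of Dp1Tyb vs WT with 95% intervals from edgeR (vertical axis) for Rspo1 (red square) and the 9 neighbours described (grey), against the distance of each gene's start from that of Rspo1 in kb. Rspo1, which was chosen for its rise, stands at 1.82 and the neighbours lie between −0.03 and 0.16.

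The 5 genes whose log2 CPM followed Rspo1 most closely over the 10 samples, by Pearson's r, were Usp22 (0.974), Scaf4 (0.963), Wrb (0.956), the nonagouti gene a (0.952) and App (0.952). Scaf4, Wrb and App lie in the duplicated region. These values describe the likeness only and contain the difference between the genotypes, since all 5 genes separated WT from Dp1Tyb samples.

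Markers of other cells are described beside the shares over all genes tested. Of all genes, 14.4% had an unadjusted p under 0.05 and 1.11% were called in edgeR. The genotypes did not overlap for 3.68% of all genes. The 4 astrocyte markers summed to 703 to 741 CPM in WT and 763 to 842 CPM in Dp1Tyb, ranges that did not overlap. Of the 4, 2 were higher, Gfap (mean 361.5 CPM in WT and 433.1 in Dp1Tyb) and Aqp4 (125.6 and 146.6). The other 2, Aldh1l1 (44.97 and 44.67) and Gja1 (191.8 and 181.5), were lower, so the sum does not describe the list as a whole. Only 1, Gfap, passed the test (log2 fold change 0.26, edgeR adjusted p = 0.0167). Of the 4 ependymal markers, 3 were higher in Dp1Tyb with an unadjusted p under 0.05 and 0 passed. The other, Foxj1, had the highest CPM of the 4 and was lower (log2 fold change −0.11). Their sums were 15.5 to 31.5 CPM in WT and 16.7 to 30.0 CPM in Dp1Tyb. Of the 3 dentate granule cell markers, 2 were lower with an unadjusted p under 0.05 and 1 was higher, with 0 past the test and sums of 266.3 to 332.4 CPM in WT and 265.6 to 286.7 CPM in Dp1Tyb. All 5 endothelial markers were lower, 2 of them with an unadjusted p under 0.05 and 0 past the test, at 150.6 to 169.0 CPM in WT and 143.9 to 156.0 CPM in Dp1Tyb. The mural, meningeal fibroblast, oligodendrocyte, CA1, CA3 and thalamus lists were mixed in direction and overlapped between the genotypes, with 0 genes called. Of the 4 mural markers, 2 had an unadjusted p under 0.05 (Rgs5 higher, Pdgfrb lower). No marker in any list was at 0 in any library. The part of these cells in the values of Rspo1, Lgr5, Lgr6, Axin2 and Fzd2 was not tested. Without the libraries poor in choroid plexus the log2 fold changes of Lgr5, Lgr6, Axin2 and Fzd2 were 0.53, −0.53, −0.28 and −0.54 (edgeR adjusted p = 0.286, 0.268, 0.252 and 0.261). With the choroid plexus covariate they were 0.51, −0.46, −0.26 and −0.47 in the same order (edgeR adjusted p = 0.196, 0.206, 0.137 and 0.152).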

How the data were processed

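Hippocampal RNA was sequenced as paired-end reads from stranded poly(A) libraries. According to the study's methods and processing notes, the authors trimmed adapters with TrimGalore, mapped to GRCm38 with TopHat 2.0.12, discarded multi-aligning reads and used htseq-count for the gene counts. Its strand setting and annotation release are not given in the sources used here, so reads of overlapping genes may be mixed. The values used are the deposited counts, not normalised. The deposited normalised values and the authors' own DESeq2 comparison (means, fold changes, p-values) were not used.

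Of the 43629 genes, 42548 matched GENCODE M21 (GRCm38); the others held 0.103% of the counts. Dp1Tyb was compared with WT in edgeR 4.0.16 (R 4.3.3; quasi-likelihood F-test, TMM, filterByExpr, no covariate) on all 10 samples, with Benjamini-Hochberg adjustment over 17237 genes and a threshold of 0.05. SE and 95% intervals come from the test's statistic and its degrees of freedom. CPM used TMM-scaled library sizes, and RPKM the union of annotated exons. Likeness used log2(CPM + 0.5). The fit was tested on simulated data. Alternatives were DESeq2 1.42.0, limma-voom (limma 3.58.1), RLE and upper quartile scaling, no filter, a replicate block, a choroid plexus covariate and leaving out samples. Mice sharing a replicate number were not paired by any label. Total counts of 18227684 to 43692270 per library limit the precision of genes with few reads. Sequencing batches and dates are not given in the labels, so no comparison within batches was made.

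Named genes were the 10 genes, called pathway genes, the most abundant and most changed tested gene of each role list, the 5 nearest tested genes on each side of Rspo1 (1 of which is not reported here), genes overlapping one of the 10 genes, and the 5 genes most like Rspo1. The genes and lists were chosen with earlier results of these data known.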

Additional observations from a re-analysis of the deposited data

Results flagged for a closer look

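For each of the 10 genes, the sample farthest from the rest of its genotype was set against the range of its group. In 20 groups of 5 samples, 2 samples stood apart, where chance gives about 1 in 20 groups. Rspo3 was at 13.4 CPM in Dp1Tyb replicate 4, against 9.44 to 9.94 CPM in the remaining mice of its genotype, so that the gap was 0.873 of the group's range. Axin2 was at 21.9 CPM in Dp1Tyb replicate 2, against 18.3 to 19.1 CPM in the others, with a gap of 0.779.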

How the results depend on the processing

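The log2 fold change of Rspo1 stayed between 1.63 and 1.95 under every alternative, each fitted to the counts by which it was chosen. The number of called genes among the other 9 genes was 0 in the main comparison and 2 with DESeq2 (Lgr5 and Axin2), and ranged from 0 to 1 when single samples were left out (Axin2, without Dp1Tyb replicate 2). Among the 73 pathway genes tested it was 0, and 1 with DESeq2, 1 with no filter on low counts and 2 with the replicate block (Fzd2 in each, with Fzd7 under the block, at adjusted p = 0.042 and 0.0272 there), with 0 to 1 when single samples were left out (Fzd2, without Dp1Tyb replicate 5 or WT replicate 1). None of the 9 neighbours of Rspo1 was called under any alternative. Over all genes 191 were called, against 507 with DESeq2, 315 with the replicate block, 108 without the 3 libraries poor in choroid plexus (an alternative chosen after seeing the data) and 105 to 218 when single samples were left out, namely 105 without Dp1Tyb replicate 2, 111 without Dp1Tyb replicate 3, 105 without WT replicate 4 and 127 without WT replicate 5. The cause was not tested. The replicate number does not pair the mice by any label, and deviations of mice with the same number correlated at −0.0597 to 0.343, so the block is given here only; of the 5 Dp1Tyb samples, 4 correlated best with a WT sample of another number.

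Several differences close to 0 changed sign. With the choroid plexus covariate these were Epha10 (−0.0576), Meaf6 (−0.0188), Pygo2 (0.00791), Rnf43 (0.0338), Ryk (0.00708), Wls (0.0746) and Zc3h12a (0.0234). Without the libraries poor in choroid plexus these were Epha10 (−0.0488), Lgr4 (0.00435), Rspo2 (−0.00378) and Zc3h12a (0.135), and with limma-voom Dnali1 (−0.0504). When single samples were left out, the ranges that crossed 0 were −0.194 to 0.0793 for 1700125G02Rik, −0.0602 to 0.00105 for 9930104L06Rik, −0.0267 to 0.25 for Cdca8, −0.133 to 0.23 for Dnali1, −0.056 to 0.0901 for Epha10, −0.0532 to 0.0224 for Lgr4, −0.0326 to 0.00167 for Maneal, −0.0526 to 0.00714 for Porcn, −0.0448 to 0.034 for Ryk, −0.124 to 0.0104 for Wls and −0.158 to 0.137 for Zc3h12a. None of these genes was called under any alternative. Depth limits genes with few reads, among them Rspo1, Lgr5, Wnt9b and Sfrp5, which had as few as 9, 34, 7 and 3 counts in a library.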
